A study of Mus musculus with 1187 samples.

Results

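Vascular connexins were described here as 4 genes, Gja1 (Cx43), Gja4 (Cx37), Gja5 (Cx40) and Gjc1 (Cx45), taken by name from a count table of 46517 genes. The table holds 1187 single cells from brains of adult C57BL/6 mice aged 3 months. The mice were Pdgfb ret/+ (590 labelled cells) or Pdgfb ret/ret (597 labelled cells), crossed with the reporters Cldn5-GFP and Cspg4-DsRed, so that sorted cells were green and not red. In ret/ret mice the retention motif of the pericyte growth factor PDGF-B is missing and the brain vessels are short of pericytes. Each column carries a plate and a well in its name, whereas the labels only number the cells and name no animal. No cell could therefore be given a genotype, and no comparison of ret/ret with ret/+ is made. The cells therefore count as 1 sample, and their plates (521, 522, 523 and 524) as batches. With 1 sample there is no test, no p-value was computed, and the spread over the 4 plates is the guide to error. Whether plates differ in genotype or animal is not known.

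Connexins assemble into channels that join the cytoplasm of neighbouring cells at gap junctions, through which ions and small molecules pass. In arteries and arterioles, Cx37 and Cx40 couple endothelial cells to each other and to smooth muscle, and this coupling carries vasodilator signals along the vessel. Cx43 is the widespread connexin of the family and is also the main connexin of astrocytes, whose endfeet cover brain vessels. Cx45 is known from smooth muscle, pericytes, the conduction system of the heart and embryonic endothelium. Bmx, a non-receptor tyrosine kinase, and Gkn3, a secreted gastrokine, mark arterial endothelium of the mouse brain, and a read of either was used to split the cells.

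Cells carried between 100779 and 584112 reads (median 360947) and between 1402 and 11043 detected genes. Cldn5, the gene behind the green reporter, stood at 4079 counts per 1e6 reads (CPM) in cells with a Bmx or Gkn3 read and 4012 CPM in other cells. Pecam1, an adhesion gene of endothelium, stood at 1220 and 1215 CPM. The cells were sorted by the Cldn5 reporter, so the Cldn5 level is no separate check of endothelial identity. The split gave 467 cells with a Bmx or Gkn3 read (341 with Bmx, 303 with Gkn3, 177 with both) and 720 with neither. On plates 521, 522, 523 and 524 the first kind made up 56.3%, 44.5%, 29.1% and 27.6% of cells. Median depth was 363867 reads with Bmx or Gkn3 and 359144 with neither, and the median number of detected genes was 4780 and 4318. The plates thus differ in their mix of cells, and plate values stand beside the main comparisons below.

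The 4 genes lie on different chromosomes (GENCODE M21, GRCm38). Gja1 (ENSMUSG00000050953.10) is at chr10:56377330-56402513 on the plus strand, and Gja4 (ENSMUSG00000050234.7) at chr4:127311421-127314039 on the minus strand. Gjc1 (ENSMUSG00000034520.14) is at chr11:102799579-102819700 on the minus strand. Gja5 (ENSMUSG00000057123.14) spans chr3:96904693-97077416 on the plus strand. None of the first 3 overlaps another annotated gene. Gja5 overlaps several, among them Gpr89, a Golgi ion channel gene on the opposite strand. The first exon of a long Gja5 transcript, chr3:96904693-96905389, shares 165 bases with the first exon of Gpr89. The other 2 annotated Gja5 transcripts begin at base 97032416, far downstream. The sources used here do not state whether the authors' counting used strand. Reads in the shared exon could not be told apart, and the main Gja5 values are given below with and without cells that hold a Gpr89 read.

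The promoters of Gja4 and Gja5 are shown because these were the 2 connexins that were higher together in Bmx or Gkn3 cells. Each window runs from 250 bases before to 50 bases after the RefSeq start (GRCm38.p6), and 3 of the 4 genes had an entry in the table of promoters. Both strands were searched for the SOX core ACAAT, the RBPJ core TGGGAA, the KLF box CACCC, the ETS core GGAA and the E-box CANNTG. The RBPJ core contains an ETS core. Capitals mark matches of the SOX, RBPJ and KLF letters. The Gja4 window is chr4:127313990-127314289 on the minus strand and the Gja5 window is chr3:97032152-97032451 on the plus strand, each printed on its own strand.
Gja4: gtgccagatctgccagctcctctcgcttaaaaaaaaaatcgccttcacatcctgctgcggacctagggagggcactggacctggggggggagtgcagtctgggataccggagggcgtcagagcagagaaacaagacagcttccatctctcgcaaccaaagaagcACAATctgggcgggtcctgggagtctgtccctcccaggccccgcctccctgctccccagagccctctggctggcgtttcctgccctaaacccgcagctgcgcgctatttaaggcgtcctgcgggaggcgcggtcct
Gja5: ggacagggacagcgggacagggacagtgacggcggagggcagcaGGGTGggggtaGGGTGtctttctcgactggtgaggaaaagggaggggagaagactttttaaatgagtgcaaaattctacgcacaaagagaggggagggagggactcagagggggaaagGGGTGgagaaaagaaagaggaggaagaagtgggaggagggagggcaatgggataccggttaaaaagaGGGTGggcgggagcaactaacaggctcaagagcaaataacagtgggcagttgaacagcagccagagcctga
The Gja4 window held 1 SOX core, which 31.0% of 32851 promoter windows of the same length hold, and no KLF box or RBPJ core. The Gja5 window held 4 KLF boxes, all on the opposite strand, and no SOX or RBPJ core; 57.5% of windows hold a KLF box and 25.6% an RBPJ core. ETS cores (2 in Gja4, 3 in Gja5) and E-boxes (1 in each) were in both windows and are in 96.0% and 72.3% of all windows. These are matches of letters and do not show binding.

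Gja1 gave the most reads of the 4 genes, and Gja5 the fewest. Over all cells Gja1 stood at 185.3 CPM, Gjc1 at 87.6 CPM, Gja4 at 43.7 CPM and Gja5 at 5.70 CPM. Per kilobase of exon the order was different: Gja4 had 25.9 CPM per kb, Gja1 18.1, Gjc1 17.5 and Gja5 0.992. On this scale the plate ranges of Gja4 (15.4 to 38.8), Gja1 (11.3 to 24.0) and Gjc1 (9.16 to 26.6) overlapped, so their order does not hold beyond the plate spread. Gja5 (0.737 to 1.14) lay below the other 3 on every plate.

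These levels came from few or many cells depending on the gene. With every cell thinned to 100000 reads, 42.7% of cells had a Gja1 read (95% counting interval 39.9% to 45.6%), 30.2% a Gjc1 read, 10.4% a Gja4 read and 8.09% a Gja5 read. Gja4 was in few cells but high there: 138 cells had a read at full depth, with a median of 308.2 CPM among them. Gja5 was in a similar number of cells, 143, but with a median of 13.2 CPM, and 10 cells held 64.5% of its reads. The 568 cells with Gja1 had a median of 221.0 CPM and the 419 cells with Gjc1 a median of 159.5 CPM. No other sorted cell type was in the table to give a background share.

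The 4 genes held 135031 reads, 98.5% of all reads of connexin genes. Gja1 took 57.5% of these, Gjc1 27.2%, Gja4 13.6% and Gja5 1.77%. Of the 16 other connexin genes in the table, 15 were under 1 CPM. Gja3 and Gjd2 had 0 reads, which allows up to 0.00716 CPM at 3 counts. Gjc3, a connexin of glia (Cx29), reached 2.65 CPM, spread thinly over 491 cells. Gjb6 (Cx30), the other astrocyte connexin, had 97 reads in 8 cells. Panx1, whose channel-forming protein opens to the outside of the cell, stood at 4.27 CPM.

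Across plates the arterial connexin and the other 2 ran in different orders. On plates 521 to 524, Gja4 stood at 65.3, 53.5, 30.3 and 26.0 CPM. Gjc1 had its lowest level on plate 521, with 45.9, 60.2, 109.9 and 133.0 CPM. Gja1 gave 115.9, 184.2, 246.3 and 197.7 CPM, and Gja5 6.53, 6.25, 4.24 and 5.77 CPM. The share of Bmx or Gkn3 cells was ordered over the plates as Gja4 was, so levels are given below for each kind of cell separately.

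Gja4 was far higher in cells with Bmx or Gkn3 than in the others. It stood at 102.2 CPM (95% counting interval 100.7 to 103.8) in the 467 cells and at 5.28 CPM (5.00 to 5.57) in the 720 others. On plates 521 to 524 it was 110.2, 120.4, 96.8 and 67.6 CPM with Bmx or Gkn3 and 6.32, 2.41, 3.40 and 8.53 CPM without, so the sides did not overlap. The log2 ratio, taken with 1 CPM added to both sides, was 4.04 (plates 3.93, 5.15, 4.47 and 2.85). At fixed depth 23.1% of cells with Bmx or Gkn3 had a Gja4 read against 2.22% of the others. Among 11789 genes with at least 5 CPM on either side, 2.77% were higher by 2-fold or more in Bmx or Gkn3 cells and 1.3% were lower by as much, and Gja4 ranked 9th from the top.

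The 2 gate genes were not equal with respect to Gja4. Cells with both Bmx and Gkn3 had 201.6 CPM of Gja4, cells with Bmx alone 55.9 CPM and cells with Gkn3 alone 22.2 CPM, against 5.28 CPM in cells with neither. By plate the cells with both lay between 121.6 and 254.6 CPM and those with Bmx alone between 40.0 and 107.2 CPM. Those with Gkn3 alone lay between 24.2 and 30.9 CPM on 3 plates and had 0 Gja4 reads in their 20 cells on plate 524, where cells with neither had 8.53 CPM. The median Gkn3 level was 6.10 CPM in cells with Gkn3 alone and 435.2 CPM in cells with both, so the cells with Gkn3 alone mostly held few Gkn3 reads. Among the 720 cells with neither gene, 10 cells held 93.8% of the Gja4 reads.

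Gja5 was higher in Bmx or Gkn3 cells as well, though at a far lower level than Gja4. It stood at 11.7 CPM (11.2 to 12.2) against 1.77 CPM (1.61 to 1.94), a log2 ratio of 2.20 (plates 2.14, 2.13, 1.92 and 2.66). Plates 521 to 524 gave 10.3, 11.9, 9.99 and 15.6 CPM with Bmx or Gkn3 and 1.56, 1.95, 1.91 and 1.63 CPM without. The share of cells with a Gja5 read differed less than the level, with 10.3% (7.68% to 13.4%) against 6.67% (4.96% to 8.74%) at fixed depth, and these intervals overlap. Cells with both gate genes had 26.1 CPM, Bmx alone 4.52 CPM and Gkn3 alone 0.704 CPM, so cells with Gkn3 alone were not above cells with neither. By plate the cells with both lay between 20.3 and 33.8 CPM, those with Bmx alone between 1.31 and 6.40 CPM and those with Gkn3 alone between 0.141 and 1.13 CPM.

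**Figure D1:**
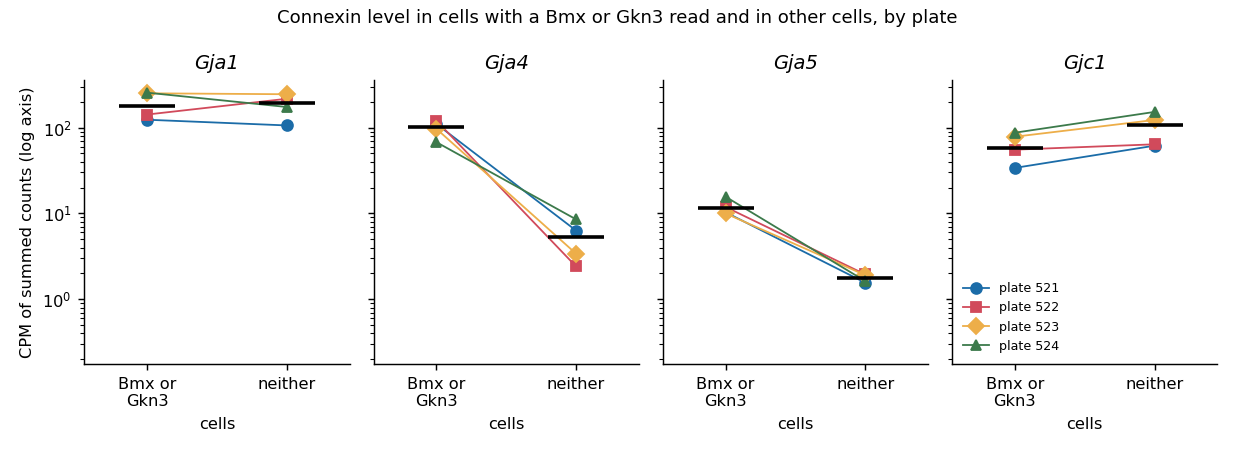
Level of each connexin (CPM of summed counts, log axis) in cells with a Bmx or Gkn3 read and in cells with neither; points joined by lines are the 4 plates and black bars are all plates together. Gja4 and Gja5 are higher with Bmx or Gkn3 on every plate, Gja1 goes in both directions, and Gjc1 is lower on every plate.

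Many of the low Gja5 values were in cells that also held a Gpr89 read. Of the 225 cells with Gpr89, 113 had a Gja5 read (50.2%), and of the 962 cells without it 30 had one (3.12%). In cells with a Gpr89 read, Gja5 stood at 12.0 CPM with Bmx or Gkn3 (105 cells) and 10.4 CPM with neither (120 cells). Plates gave between 6.92 and 15.0 CPM with Bmx or Gkn3 and between 7.57 and 12.8 CPM with neither, so within these cells the 2 sides overlapped. Counts per gene do not show where in a gene the reads lie, and the part of the shared exon in this was not tested.

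Without the cells that held a Gpr89 read, Gja5 was nearly absent outside Bmx or Gkn3 cells. The 362 Bmx or Gkn3 cells had 1495 Gja5 reads, or 11.6 CPM, in 17 cells. The 600 cells with neither had 14 Gja5 reads, or 0.0663 CPM, in 13 cells. Plates 521 to 524 gave 8.66, 12.8, 9.63 and 17.5 CPM with Bmx or Gkn3. With neither, plate 521 had 0 reads, which allows up to 0.0807 CPM at 3 counts, and the other plates had 0.0868, 0.0480 and 0.107 CPM. The log2 ratio was 3.56 (plates 3.27 to 4.06), with 3.41% of genes 2-fold higher and 1.75% lower in this comparison, and Gja5 ranked 18th of 11838. Gja4 in the same cells gave 112.1 against 5.29 CPM, a log2 ratio of 4.17. Which of the 2 had the larger ratio here depended on the prior: without one, the fold was 175.0 for Gja5, on 14 reads in the lower group, and 21.2 for Gja4.

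**Figure D2:**
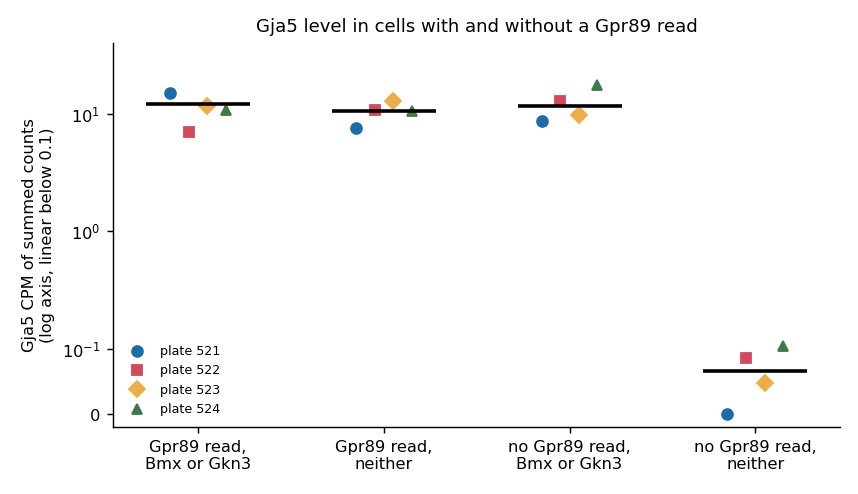
Gja5 level (CPM of summed counts, log axis that is linear below 0.1) in cells with and without a Gpr89 read, each divided by Bmx or Gkn3; points are the 4 plates and bars all plates together. With a Gpr89 read the pooled levels of both kinds of cell lie near 10 CPM, and without one only that of the Bmx or Gkn3 cells does. That last level came from few cells: 17 of the 362 had a Gja5 read and 11 reached 10 CPM.

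Gja1 did not separate the 2 kinds of cell. It stood at 176.4 CPM with Bmx or Gkn3 and 191.1 CPM with neither, a log2 ratio of -0.12 with plates at 0.22, -0.61, 0.04 and 0.55. Plates 521 to 524 gave 123.4, 141.9, 250.7 and 255.0 CPM with Bmx or Gkn3, and 105.9, 216.5, 244.6 and 173.7 CPM with neither. Plates moved in both directions and differed from each other by more than the kinds of cell did. The share with a read at fixed depth was 41.8% (37.2% to 46.4%) and 43.3% (39.7% to 47.0%). Gja1 was at 194.7 CPM with Bmx alone, 150.9 with Gkn3 alone and 177.0 with both.

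Gjc1 was lower with Bmx or Gkn3 but stayed short of a 2-fold difference. It stood at 57.7 CPM against 107.3 CPM, a log2 ratio of -0.88, and 25.3% against 33.3% of cells had a read at fixed depth. Within plates 521 to 524 the levels were 33.9, 55.3, 78.3 and 87.2 CPM with Bmx or Gkn3 and 61.5, 63.8, 122.7 and 152.2 CPM with neither. The sides were ordered the same way on each plate, with log2 ratios of -0.84, -0.20, -0.64 and -0.80, but overlapped between plates. The pooled ratio lies outside the plate ratios, since the plates with the most Bmx or Gkn3 cells had the least Gjc1. Without plate 522 it was -1.02, just past 2-fold. Markers of pericytes, which were excluded in the sort by the red reporter, moved in the same direction: the 9 genes summed to 40.9 CPM with Bmx or Gkn3 and 91.5 CPM with neither, although on plate 521 the order was reversed (27.7 and 19.0 CPM). None of the 9 was at 0 over all cells, and their part in the Gjc1 difference was not tested. Gjc1 itself was 76.2 CPM in the 147 cells with at least 100 CPM of these markers, 89.2 CPM in the rest and 86.5 CPM in the 801 cells with none.

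**Figure D3:**
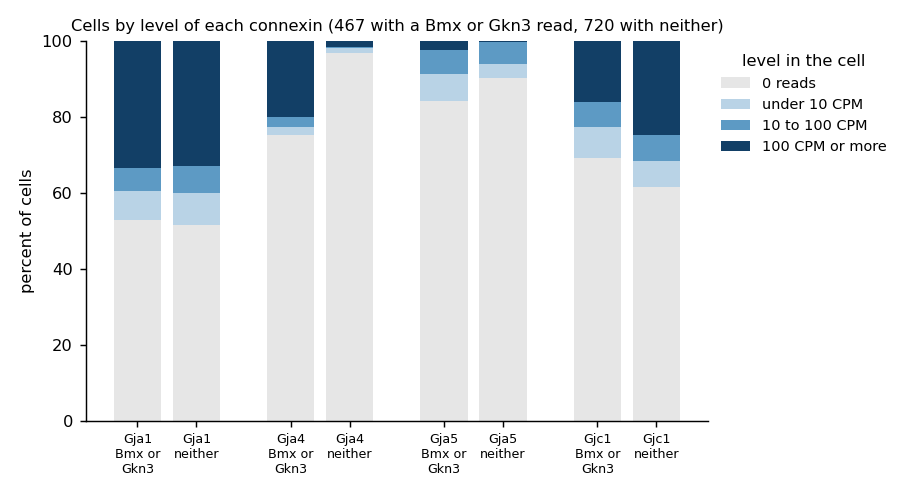
Percent of cells in 4 classes of level for each connexin, for the 467 cells with a Bmx or Gkn3 read and the 720 with neither. The class of 100 CPM or more holds 19.9% and 1.39% of cells for Gja4, 2.14% and 0.139% for Gja5, 33.4% and 32.9% for Gja1, and 16.1% and 24.6% for Gjc1.

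Within the Bmx or Gkn3 cells, Gja4 and Gja5 were highest where genes of the elastic fibre and the matrix of large vessels were read. Eln encodes elastin, Fbln5 an elastic fibre protein and Mgp an inhibitor of calcification; this split was chosen after the values had been seen. Gja4 stood at 567.1 CPM in the 25 cells with all 3 genes at 10 CPM or more, 217.3 CPM in the 62 cells with 1 or 2 of them, and 54.3 CPM in the 380 cells with none. On each plate Gja4 kept this order. Gja5 gave 92.1, 38.8 and 2.21 CPM. On plate 521 the first 2 steps of Gja5 were reversed, with 39.9 CPM in the 8 cells with all 3 genes and 53.7 CPM in the 19 cells with 1 or 2. Gja1 gave 36.8, 59.5 and 204.3 CPM, highest on each plate in the cells with none, and Gjc1 gave 37.2, 48.1 and 60.5 CPM.

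The log2 ratio of the 87 cells with at least 1 of these genes over the 380 with none was 2.51 for Gja4 (plates 2.20 to 3.00) and 4.09 for Gja5 (3.32 to 4.88). For Gja1 it was -1.92, with plates at -0.87, -1.73, -4.45 and -2.24, and for Gjc1 it was -0.42, with plates on both sides of 0. In this comparison 8.85% of genes passed 2-fold upwards and 8.35% downwards. The 6 fibroblast markers summed to 124.6 CPM in the cells with an elastic fibre gene and 5.06 CPM in those without, the 6 smooth muscle markers to 19.6 and 12.2 CPM, the 9 pericyte markers to 83.2 and 31.3 CPM, and the 12 astrocyte markers to 107.4 and 64.9 CPM. In all cells, the 21 with at least 100 CPM of fibroblast markers had 2.43 CPM of Gja5 against 5.76 CPM in the rest, and were higher on 1 of 4 plates. For Gja4 they had 115.7 CPM against 42.5 CPM, and were higher on 2 of 4 plates. The part of these other cell types in the split was not tested for any of the 4 connexins.

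The split was also made without cells that held a Gpr89 read. Of the 1495 Gja5 reads in the Bmx or Gkn3 cells that remained, 674 were in 5 of the 22 cells with all 3 elastic genes and 817 in 8 of the 48 cells with 1 or 2. The 292 cells with none of them held 4 Gja5 reads, in 4 cells (0.0384 CPM, counting interval 0.0105 to 0.0983). Plate 521 again departed from the order, with 0 reads in its cells with all 3 genes, which allows up to 1.32 CPM at 3 counts, and 80.9 CPM in those with 1 or 2. Thus Gja5 free of Gpr89 rested on few cells, and 9 cells of the whole table without a Gpr89 read reached 100 CPM.

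Single markers of vessel zones, each divided at 10 CPM, gave each connexin its own profile. All 14 arterial markers went with at least 2-fold more Gja4 (median log2 ratio 3.13, from 2.30 for Unc5b to 3.96 for Bmx) and with at least 2-fold more Gja5 (median 2.83, from 1.05 for Tm4sf1 to 4.36 for Mgp). Gja4 was higher on 4 of 4 plates with 13 of them and Gja5 with 12. At fixed depth a larger share of cells had a Gja5 read with each of the 14 except Unc5b (7.35% against 8.31%). Among the 14, Bmx, Gkn3, Eln, Fbln5 and Mgp were genes of the splits above, so their ratios largely repeat those results and add no separate support. Without cells that held a Gpr89 read, Gja5 was higher with each of the 14 (median 3.90, from 2.47 for Unc5b to 5.53 for Mgp), on 4 of 4 plates with 10. These ratios, and those without Gpr89 cells for the other zones below, divide the same 30 cells with a Gja5 read. Of these cells 11 reached 10 CPM, so the ratios are not separate results. Over all genes tested against the 14 arterial markers, 6.09% of pairs were 2-fold higher and 5.54% 2-fold lower. Gja1 was 2-fold higher with 1 arterial marker, the netrin receptor gene Unc5b (314.6 against 145.7 CPM, log2 ratio 1.10, higher on 4 of 4 plates), and 2-fold lower with 4. The lowest was Mgp, with 43.3 CPM of Gja1 in cells with it and 193.5 CPM in cells without. Gjc1 was 2-fold lower with 3 of the 14 and 2-fold higher with 0.

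Capillary markers showed the opposite profile. Pooled over plates, all 10 went with less Gja4 and less Gja5, 8 of them 2-fold or more for each, where 4.30% of pairs over all genes were 2-fold lower and 3.28% 2-fold higher. Gja4 was lower on all 4 plates with 8 of the 10 and Gja5 with 7. The exceptions for Gja5 were Spock2, whose pooled log2 ratio was -1.77 although Gja5 was higher with it on 3 of 4 plates and 8.14% against 6.82% of cells had a read at fixed depth, Slc16a4, higher on 2 plates, and Rgcc, higher on 1. For Gja4 they were Spock2, higher on 2 plates, and Rgcc, higher on 1. The share of cells with a Gja5 read at fixed depth was also larger with Slc16a1 (8.21% against 7.92%) and Slc16a4 (8.68% against 7.03%). With capillary markers other than these and Spock2 it was smaller. Without cells that held a Gpr89 read, the median log2 ratio of Gja5 was -2.49, from -4.35 for Slc7a5 to 0.08 for Slc16a4, and Gja5 was lower on all 4 plates with 7. Cells with Slc7a5, the large neutral amino acid transporter of the blood-brain barrier, had 17.7 CPM of Gja4 and 2.54 CPM of Gja5, and cells below 10 CPM of it had 269.7 and 33.2 CPM. Gja1 was 2-fold higher with 4 of the 10, and on each of the 4 plates with Mfsd2a and Spock2 among these. One was Mfsd2a, the lipid transporter that restrains transcytosis at the barrier, with 247.8 CPM of Gja1 against 98.9 CPM in cells without (log2 ratio 1.32, higher on 4 of 4 plates). Gjc1 was 2-fold higher with 1, Spock2, a marker that 1143 of the 1187 cells carried.

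Venous markers, of which 9 had enough cells on both sides, were mixed. Over all genes 3.31% of pairs were 2-fold higher and 3.24% lower. Gja4 was 4.87 CPM in cells with Nr2f2, the venous transcription factor COUP-TFII, and 50.0 CPM in cells without; with the apelin receptor gene Aplnr it was 0.0667 against 47.1 CPM. Vwf and Vcam1, which arteries also express, went with 2-fold more Gja4 and Gja5, on 4 of 4 plates for Vcam1 and 3 of 4 for Vwf. Without cells that held a Gpr89 read, the log2 ratio of Gja5 was 2.14 with Vcam1, 1.88 with Vwf and -2.59 with Nr2f2. Gja1 was 2-fold higher with 0 of the 9 venous markers and 2-fold lower with 2, Vcam1 (82.5 against 213.4 CPM) and Icam1.

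Of 7 tip cell and angiogenic markers, 6.46% of pairs over all genes being 2-fold higher and 8.06% lower, 1 went with 2-fold more Gja1. It was the chemokine receptor gene Cxcr4, with 411.9 CPM of Gja1 in 43 cells against 177.2 CPM (log2 ratio 1.21, higher on 4 of 4 plates). Plvap, a gene of fenestral diaphragms, went with 217.3 CPM of Gja4 in 49 cells against 35.9 CPM, higher on 3 of 4 plates. Gja4 was 2-fold lower with 2 of the 7: Angpt2, a Tie2 ligand gene (321 cells, 9.22 against 56.2 CPM), and Apln, the apelin gene (4.88 against 51.1 CPM), both lower on all 4 plates. Gja5 was 2-fold lower with 3, Angpt2 (1.54 against 7.21 CPM), Apln (1.99 against 6.41 CPM) and Cxcr4, the last lower on 3 of 4 plates. Gjc1 was 2-fold lower with 1, Lamb1 (24.9 against 89.7 CPM, lower on all 4 plates). Without cells that held a Gpr89 read, the Gja5 log2 ratio was -2.77 with Angpt2 and -2.58 with Apln.

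**Figure D4:**
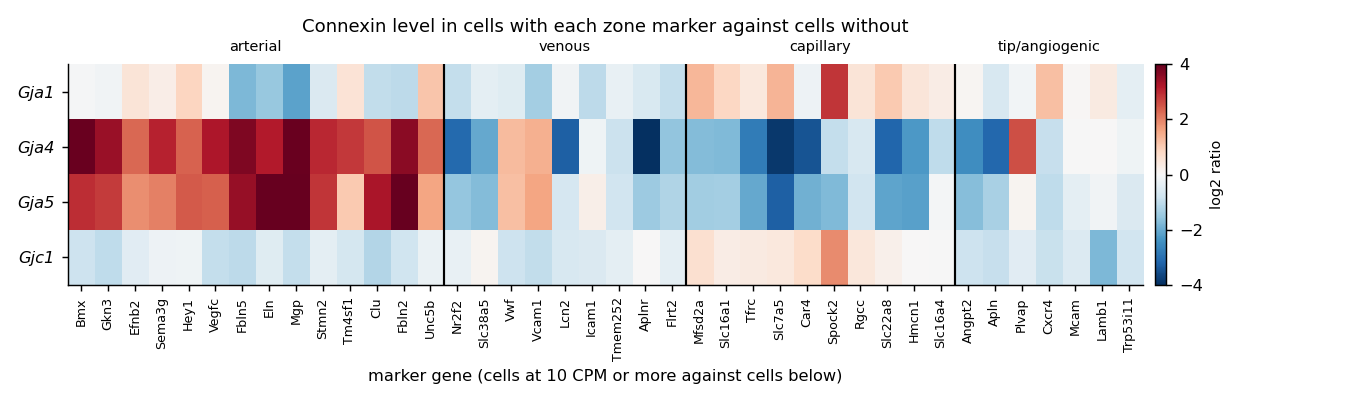
Log2 ratio of each connexin in cells with a zone marker at 10 CPM or more over cells below, for 14 arterial, 9 venous, 10 capillary and 7 tip or angiogenic markers; colours stop at 4 in both directions. Gja4 and Gja5 are red with all arterial markers and blue or near 0 with capillary markers, while Gja1 is blue with Mgp, Fbln5 and Eln and red with Mfsd2a, Slc7a5 and Spock2.

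Reads of 2 astrocyte genes were used to ask whether Gja1 came with astrocyte material: Aqp4, the water channel of endfeet, and Slc1a2, the astrocyte glutamate transporter. They were found in 35 and 147 cells, 168 cells in all. Gja1 was not higher in these cells: it stood at 134.7 CPM with an Aqp4 or Slc1a2 read and 193.6 CPM in the 1019 cells with none. Plates 521 to 524 gave 108.5, 185.2, 194.8 and 37.1 CPM with such a read, and between 117.7 and 256.3 CPM without. The log2 ratio was -0.52, with plates at -0.12, 0.01, -0.39 and -2.49, and without plate 524 it was -0.27. In this comparison 2.96% of genes were 2-fold higher and 2.65% lower, and Gja1 was in neither group. The share of cells with a Gja1 read at fixed depth was 41.7% and 42.9%.

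Gja1 also did not climb with the amount of astrocyte reads. With 0 reads of Aqp4 and Slc1a2 it was 193.6 CPM, with less than 10 CPM of them 133.9 CPM (113 cells), with 10 to 100 CPM 201.4 CPM (19 cells), and with 100 CPM or more 105.7 CPM (36 cells). The 2 upper classes held few cells of a plate, and their plate values ranged from 0 to 461.0 CPM and from 1.79 to 219.8 CPM. Of these 36 cells, 19 had 0 Gja1 reads. The share with a Gja1 read at full depth was 47.2% in the 36 cells (counting interval 30.4% to 64.5%) and 47.9% in all cells. At fixed depth it was 36.1% (20.8% to 53.8%) and 42.7%. Both intervals are wide and hold the share of all cells. In the 628 cells with 0 reads of all 12 astrocyte markers, Gja1 was 203.6 CPM, and 42.7% of them had a Gja1 read at fixed depth. In the 559 cells with any of these markers it was 164.6 CPM, a log2 ratio of -0.31 to the others, where 1.29% of genes were 2-fold higher and 0.662% lower. Of the 472 cells with at least 10 CPM of Gja1, 411 (87.1%) had no Aqp4 or Slc1a2 read and 254 (53.8%) none of the 12 markers. Among all 1187 cells, 1019 had no Aqp4 or Slc1a2 read and 628 none of the markers, so the shares were near those of all cells. Cells with no Aqp4 or Slc1a2 read held 89.7% of Gja1 reads and 85.9% of all reads.

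Few of the cells highest in Gja1 held reads of the astrocyte pair, and few of all cells did. Among the 100 cells with the most Gja1, 8 had an Aqp4 or Slc1a2 read and 3 had 10 CPM of the pair. Among all 1187 cells, 168 had such a read, 19 had 10 to 100 CPM of the pair and 36 had 100 CPM or more. Over all cells there were 12.9 Gja1 reads for each Aqp4 or Slc1a2 read, while in the cells with 100 CPM or more of the pair there were 0.241. Those cells were chosen for many reads of the pair, which by itself lowers the ratio, so no conclusion is drawn from it. The correlation of Gja1 with the summed pair, on log2(CPM + 1) with plate means removed, was -0.025 over 1187 cells that share plates and depth; this is a description. Gjb6, the second connexin of astrocytes, stood at 0.546 CPM in the 472 cells with at least 10 CPM of Gja1, with 92 reads in 4 cells, and at 0.0200 CPM in the 715 others, with 5 reads in 4 cells.

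**Figure D5:**
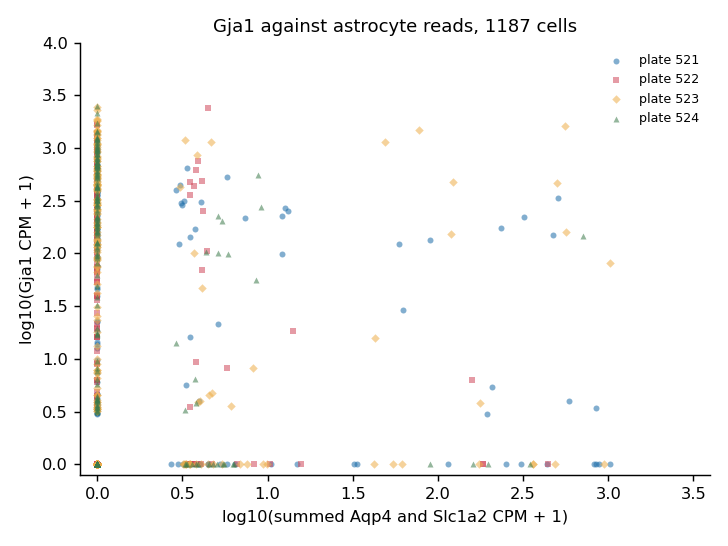
Gja1 level against the summed level of Aqp4 and Slc1a2 in each of the 1187 cells (both axes log10 of CPM + 1), by plate. Most cells with Gja1 lie at 0 on the astrocyte axis, as do 1019 of the 1187 cells. Of the 36 cells at 100 CPM or more on it 19 lie at 0 for Gja1. At full depth 47.2% of the 36 have a Gja1 read against 47.9% of all cells, and at fixed depth 36.1% against 42.7%.

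The comparison of Gja1 between kinds of cell was the same in size without astrocyte reads. Among cells with no Aqp4 or Slc1a2 read it was 182.6 CPM with Bmx or Gkn3 and 200.9 CPM with neither, a log2 ratio of -0.14 (plates -0.02, -0.48, 0.03 and 0.50). Here 3.12% of genes were 2-fold higher and 1.59% lower. Among cells with none of the 12 markers the log2 ratio was 0.10, with plates again on both sides of 0 and with 4.07% of genes 2-fold higher and 3.09% lower. Gja1 was higher, by less than 2-fold, in cells with markers of mural cells. It was 262.5 CPM in the 35 cells with 100 CPM of smooth muscle markers against 183.0 CPM in the rest. With pericyte markers it was 219.4 CPM in the 147 cells with 100 CPM of them against 180.6 CPM. In the 962 cells with 0 smooth muscle reads Gja1 stood at 188.2 CPM, and in the 801 with 0 pericyte reads at 167.3 CPM.

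Counted cell by cell at 10 CPM, 436 cells (36.7%) had none of the 4 connexins, 528 (44.5%) had 1, 192 (16.2%) had 2, 29 had 3 and 2 had all 4. Gja1 alone was the commonest state with 287 cells, followed by Gjc1 alone with 166, Gja1 with Gjc1 in 114 and Gja4 alone in 51. Among Bmx or Gkn3 cells, 15.1% of those with Gja4 also had Gja5, against 6.65% of those without Gja4 (counting intervals 8.88% to 23.4% and 4.31% to 9.73%). Of the 82 cells with Gja5 at 10 CPM, 71 held a Gpr89 read. Without cells that held such a read, 6 of 85 Bmx or Gkn3 cells with Gja4 had Gja5 (7.06%, counting interval 2.63% to 14.7%), against 5 of 277 without Gja4 (1.81%, 0.589% to 4.16%), and these intervals overlap. Among all Bmx or Gkn3 cells, 19.0% of those with Gja1 had Gja4, against 25.1% of those without Gja1. Correlations between pairs of the 4 genes within plates were between -0.05 and 0.01, except 0.14 for Gja4 with Gja5, which was 0.17 over the 962 cells without a Gpr89 read. In counts this sparse such values are no more than a description.

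The genes whose pattern over the 1187 cells was most like each connexin were ranked among 10010 genes by the same correlation. For Gja4 they were Col18a1, a basement membrane collagen (r = 0.47), Bmx (0.46), Gkn3 (0.45), Alpl, the alkaline phosphatase of brain endothelium (0.42), and Cd24a (0.39). Col18a1 stood at 85.8 CPM in Bmx or Gkn3 cells and 5.49 CPM in the others, and Gja4 at 277.7 CPM in cells with Col18a1 at 10 CPM and 18.0 CPM in cells without. Col18a1 was picked for its likeness to Gja4 in these same cells, so the Gja4 difference follows from that choice. Bmx and Gkn3 are the genes of the split, and their places in the ranking add no separate support. For Gja5 the closest gene was Gpr89 (r = 0.57, plates 0.56 to 0.59), with Clu (0.17), Fhl1 (0.16), Bmx (0.15) and Prmt5 (0.15) far behind.

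For Gja1 the closest genes were Ivns1abp (r = 0.27), Gm10138 (0.26), which overlaps Ivns1abp, Mfsd2a (0.26), the Notch ligand gene Dll4 (0.22) and Unc5b (0.21). Gja1 was 236.8 CPM in cells with Dll4 at 10 CPM and 122.3 CPM in cells without, a difference that follows from picking Dll4 for its likeness to Gja1. For Gjc1 the closest were Utp11l, Tbc1d14, Sema3c, Adgrg1 and Fam101b, all at 0.13, so no gene went closely with it.

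Lists of related genes were set against all 11789 genes of the same comparison, of which 2.77% were 2-fold higher and 1.3% lower, with a median log2 ratio of 0.01. Of 12 measured partners of connexins (scaffolds, cadherins, catenins, caveolin and turnover factors), 0 were 2-fold apart in either direction, with a median of 0.03. Tjp1, the scaffold ZO-1 that binds connexin tails, stood at 579.5 and 576.8 CPM. Of 18 measured arterial regulators, 2 were 2-fold higher and 0 lower (median 0.22). Hey1, a Notch target repressor, stood at 164.4 CPM with Bmx or Gkn3 and 51.4 CPM with neither (log2 ratio 1.66, plates 1.44 to 2.68), and the Notch ligand gene Jag1 at 168.8 and 83.4 CPM (1.01, plates 0.77 to 1.38). Efnb2, the arterial ephrin, had a log2 ratio of 0.85, and the SoxF factor Sox17 one of 0.37.

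Of 7 measured genes of vasodilator conduction, 1 was 2-fold higher and 0 lower (median 0.02), beside the 2.77% and 1.3% of all genes. It was Trpv4, a calcium channel that opens to stretch and lipid signals, at 48.6 CPM with Bmx or Gkn3 and 10.1 CPM with neither (log2 ratio 2.16, plates 1.94 to 2.89). Itpr3, a calcium release channel, stood at 112.4 and 59.0 CPM (0.92). Nos3, the endothelial nitric oxide synthase, stood at 348.6 and 364.2 CPM (-0.06). Panx1, the one pannexin measured, had a log2 ratio of 0.35, and 0 of the 16 other connexins reached 5 CPM on either side.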

How the data were processed

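Cells were sorted and read by Smart-seq2, in which each well is a full-length library without molecular identifiers. The authors deposited whole-number read counts per gene. The tools named in the submitters' processing notes are featureCounts, Subread 1.4.6-p5, TopHat2 2.1.1 and SAMtools 0.1.18, and the builds are mm10 and GRCm38; settings are not given in the sources used here. From the deposited counts, CPM were computed as summed reads of a gene over summed reads of the cells, with exact Poisson intervals. Shares carry exact Clopper-Pearson intervals at 95%, after each cell was thinned to 100000 reads by a seeded draw, which lost no cell. No interval or floor covers more than counting error. Poisson intervals and floors count each read, though PCR copies are not separate molecules, so they understate even that error. Log2 ratios used a prior of 1 CPM on both sides, and a gene counted as tested at 5 CPM or more on either side and as called at 2-fold. The log2 ratio and the 2-fold call were tested on simulated Poisson counts of pooled cells, and the thinning was checked on the real counts. The simulated counts had no spread between cells or plates, so error from that spread was not tested. No doublet caller was run and no cell was left out; 0 pairs of columns were identical. Cells are not replicates, so no test was made. Zone markers were used where at least 30 cells lay on each side. Named genes are the 4 connexins, the genes of the split, for each connexin the 5 genes of highest within-plate correlation among those read in at least 10% of thinned cells, and members of the gene lists; Eln, Fbln5 and Mgp as a split, and Gpr89, were singled out after values were seen. The connexins, lists and splits were chosen with earlier results of these data known. Alternatives covered the definition of the splits, scaling, prior, filters, depth, cells with markers of other types, cells with a Gpr89 read and leaving out each plate. Python 3.11.15, numpy 2.4.6, pandas 2.3.3, scipy 1.17.1 and matplotlib 3.10.9 were used. Coordinates are from GENCODE M21 and promoters from RefSeq (GRCm38.p6).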

Additional observations from a re-analysis of the deposited data

Results flagged for a closer look

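Of 32 sets of 4 plate values examined, 1 held a plate that stood apart from the other 3 by Dixon's criterion at 95%, where chance gives about 1 set in 20. It was the log2 ratio of Gja1 in cells with an Aqp4 or Slc1a2 read over cells with none, which was -2.49 on plate 524 and between -0.39 and 0.01 on the other plates (gap to range 0.839). Plate 524 had 30 cells with such a read, with 37.1 CPM of Gja1. At fixed depth 36.7% of these 30 cells had a Gja1 read, against 38.3% to 46.7% on the other plates.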

How the results depend on the processing

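No paired analysis was possible because no column could be tied to a labelled sample and no result comes from a test. Of 137 alternative values for the main results, 122 stayed within 1 SD of the plates or, for counts of genes, within 1.5 times, 15 moved further and 0 changed direction past a call. The Gja5 log2 ratio (2.20) was 2.62 with the split at 10 CPM, 2.67 with Bmx alone, 2.66 with a prior of 0.1 CPM, 1.30 with a prior of 5 CPM, and, by alternatives chosen after seeing the data, 3.56 without cells with a Gpr89 read and 3.29 for cells with both genes against neither. The Gja4 log2 ratio (4.04) was 3.02 with Gkn3 alone. The number of genes 2-fold higher (326) was 162 with a prior of 5 CPM, 643 with no filter on genes and 641 for both genes against neither. The number 2-fold lower (153) was 234 with the split at 10 CPM, 40 with a prior of 5 CPM, 436 with no filter and 485 for both genes against neither. Leaving out each plate gave 336 to 425 higher and 204 to 258 lower, with 258 without plate 521. It gave log2 ratios of 3.77 to 4.52 for Gja4, 2.05 to 2.27 for Gja5, -1.02 to -0.71 for Gjc1 and -0.33 to 0.03 for Gja1. For Gja1 it gave -0.37 to 0.0042 among cells with no Aqp4 or Slc1a2 read, and -0.67 to -0.27 for cells with such a read against others. The Gjc1 ratio passed 2-fold without plate 522 (-1.02) and for both genes against neither (-1.07). Without cells that held a Gpr89 read, 17 of 362 Bmx or Gkn3 cells had a Gja5 read. Causes of these shifts were not tested.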
